A study of Mus musculus with 17 samples.

Results

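The difference between livers labelled Gata4LKO (liver knockout of Gata4) and control livers was measured in mRNA libraries, as the mean of the genotype difference in mice given a drug vehicle and that in mice given GW3965. All 17 of the 17 libraries of the series entered, 9 labelled Gata4LKO and 8 labelled control, grouped by sample title. GW3965 is a small-molecule activator of LXR, the oxysterol-sensing nuclear receptors known as liver X receptors. Both genotypes were male mice of mixed strain with floxed Gata4 alleles (Gata4 fl/fl), so the controls carried the floxed alleles too. At 10 weeks of age they received AAV8-Tbg-Cre, a virus that carries Cre recombinase under the hepatocyte promoter Tbg, or an empty AAV8, so Cre itself and the loss of Gata4 cannot be told apart. At 11 weeks, by the sample labels, 1 week after the virus, they were dosed by gavage at 17 h and again at 8 h before tissue was taken, after a 4 h fast. Control vehicle mice gave 4 libraries (dimethylsulfoxide in canola oil), Gata4LKO vehicle 4, control GW3965 4 (40 mg/kg in canola oil) and Gata4LKO GW3965 5.

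GATA4 is a zinc-finger transcription factor that binds GATA sequences and works with cofactors of the FOG family and with other tissue-restricted factors. It is known for its roles in the heart, in liver development, in the sinusoidal endothelium and stellate cells of the liver, and in the jejunum, where it is needed for expression of genes of lipid absorption. The hepatocyte secretes lipoproteins, conjugates bile acids, synthesises cholesterol and fatty acids and clears drugs and steroids, and the genes of these functions were read as lists.

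Values are the authors' normalized counts, in which a library's reads are scaled by a single factor, and differences are libraries labelled Gata4LKO minus control on the log2(normalized count + 1) scale with the standard error of a limma fit. The libraries held 11.8 to 22.05 M reads in genes. Mitochondrially encoded genes took 15.6% to 32.6% of the counts in 5 libraries, 3 of the 8 control and 2 of the 9 labelled Gata4LKO, and 6.06% to 7.26% in the other 12. The treatment label of 8 libraries, those of Gata4LKO vehicle and control GW3965, goes against the title, while the genotype label does not. Grouped by title, 18 LXR target genes summed to 204847 to 251976 in Gata4LKO vehicle and 422219 to 1042160 in control GW3965. They summed to 262537 to 364789 in control vehicle and 289138 to 757352 in Gata4LKO GW3965. Replicate 6 of Gata4LKO vehicle and replicate 16 of Gata4LKO GW3965 had the fewest genes above 0, 15515 and 15601. By exact permutation of genotype within treatment (two-sided, 8820 assignments, 6 measures), no difference between genotypes passed for mitochondrial share (means of 10.8% in control and 10.7% in Gata4LKO, p = 0.913), reads (p = 0.918) or genes above 0 (p = 0.750), with an adjusted p = 0.978 for each. The pseudogene Gm5345 was below 10 in 4 of the 9 libraries labelled Gata4LKO, all of them with vehicle, and in 2 of the 8 controls, replicates 9 and 10 of control GW3965. The hepatocyte genes defining the tissue were abundant in every library, with a summed normalized count of 9 markers between 1172540 and 2133820. With vehicle this sum ran from 1651280 to 1826430 in control and from 1300300 to 1520690 in Gata4LKO, without overlap. With GW3965 it ran from 1424150 to 2133820 in control and from 1172540 to 1549640 in Gata4LKO, overlapping.

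Gata4 itself (chromosome 14, 63198922 to 63271692, minus strand, mm10) was not lower in the libraries labelled Gata4LKO. Its normalized count had a lowest value of 128, a median of 176 and a highest of 258 in the 8 control libraries, and 137, 223 and 259.9 in the 9 labelled Gata4LKO. The ranges overlapped almost completely. The averaged fold was 1.11 (95% interval 0.907 to 1.37, limma adjusted p = 0.935, exact permutation p = 0.304). The floxed exons are not named in these sources, and other liver cells express the gene too, so a whole-gene count checks the labels only in part and every direction below is that of the libraries labelled Gata4LKO. The related factor Gata6 had an averaged difference of 0.01 ± 0.17 (limma adjusted p = 0.999).

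A small set of genes differed by genotype when both treatments were averaged, and most were lower. Of 13379 genes tested, 30 passed a limma adjusted p of 0.05, or 0.224% of all genes tested. Lower values made up 24 of them (0.179% of all genes) and higher values 6 (0.0448%). Before adjustment, 962 genes (7.19%) had p below 0.05, 530 of them lower (3.96%) and 432 higher (3.23%). The 30 were all protein coding and lay on 13 chromosomes. Folds ran from 0.182 to 0.804 in those that fell and from 1.78 to 2.90 in those that rose. The last gene inside the threshold was Lacc1 (limma adjusted p = 0.0490) and the first outside was the desaturase Fads1 (0.0509). Whether every library is a mouse of its own is not stated in the labels, so p-values measure only the spread between libraries.

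**Figure D1:**
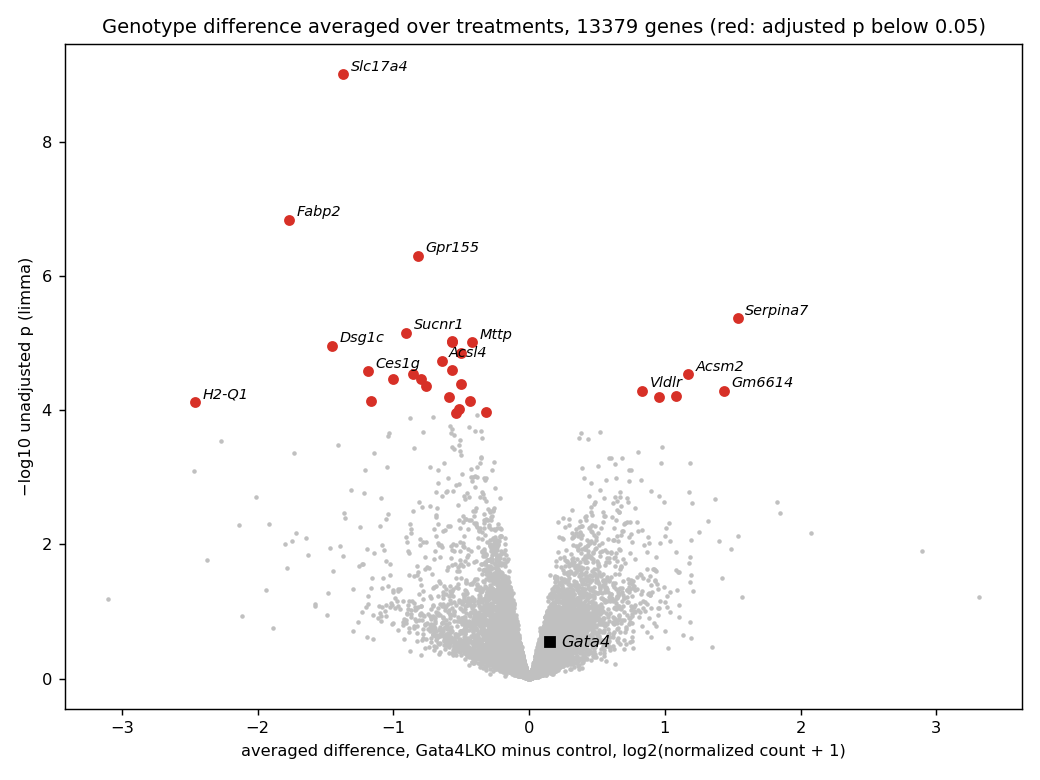
Averaged genotype difference (x axis, Gata4LKO minus control on the log2(normalized count + 1) scale) against -log10 of the unadjusted limma p (y axis) for each of 13379 genes, with the 30 called genes as large red points and Gata4 as a black square. The 24 called genes on the left, with Slc17a4 highest, outnumber the 6 on the right, and Gata4 sits near the bottom at 0.16.

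The count moved with single libraries and with the model. It was 9 without replicate 3 of control vehicle and 57 without replicate 17 of Gata4LKO GW3965, the library with the highest mitochondrial share. Slc17a4, Fabp2, Gpr155, Serpina7, Sucnr1, Adh1, Hsd17b2 and Dsg1c were called in all 17 fits that left out 1 library, and the other 22 genes lost the call in at least 1. On reads recovered from the normalized table, edgeR called 26 genes, all among the 30, and DESeq2 129, the 30 among them. With the presence of Gm5345 as a covariate, added after seeing the data, 8 genes were called, 6 of them among the 30. With vehicle the presence of Gm5345 followed genotype in every library, and every Gata4LKO GW3965 library had it. The covariate is thus estimated only from replicates 9 and 10 against 12 and 13 of control GW3965, and cannot be separated from genotype with vehicle. Without the 5 libraries of high mitochondrial share 37 were called, 17 of them among the 30.

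The sequence before the start of called genes was read for the letters GATA4 is known to bind, and 5 windows, all of lower genes, are printed. Of the 30 genes, 23 had an entry in the RefSeq promoter table (GRCm38.p6), with 28 windows of 250 bases upstream of an annotated start. The word AGATAA, the word AGATAG, the word TGATAA and the word TGATAG were searched on both strands, and matches that share end letters were each counted. At least 1 word was in 14 of the 28 windows, against 26.5% of all 32851 windows of that length in the table. Per gene this was 13 of 23, against 29.7% of 27025 genes, with 8 of 17 lower genes and 5 of 6 higher genes. Adh1, Ces2g, Akr1c19 and Lect2 are the lower genes with more than 1 match, and Fabp2 is shown as the gene of largest fall with an entry and has no match. The higher genes Serpina7 and Gm6614 also have a window with 2 matches, not printed here. Each is written 5′ to 3′ on the strand of the gene and ends at the base before the start, and capitals mark a word or its reverse complement. A match is a description of letters and not a measured site.
Adh1: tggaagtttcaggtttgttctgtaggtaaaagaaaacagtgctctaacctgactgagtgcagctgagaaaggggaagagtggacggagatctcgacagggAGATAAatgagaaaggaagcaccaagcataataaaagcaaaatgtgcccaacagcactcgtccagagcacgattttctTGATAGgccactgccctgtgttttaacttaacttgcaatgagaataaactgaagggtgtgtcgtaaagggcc
Ces2g: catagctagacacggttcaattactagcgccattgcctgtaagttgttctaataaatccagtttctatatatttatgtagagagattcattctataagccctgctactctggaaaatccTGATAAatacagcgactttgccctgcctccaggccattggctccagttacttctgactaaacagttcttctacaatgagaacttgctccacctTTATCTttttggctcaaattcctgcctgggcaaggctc
Akr1c19: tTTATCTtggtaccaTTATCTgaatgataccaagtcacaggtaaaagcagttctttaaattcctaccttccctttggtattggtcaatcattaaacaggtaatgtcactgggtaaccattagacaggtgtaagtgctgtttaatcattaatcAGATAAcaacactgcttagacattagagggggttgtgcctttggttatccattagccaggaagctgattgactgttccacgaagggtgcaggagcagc
Lect2: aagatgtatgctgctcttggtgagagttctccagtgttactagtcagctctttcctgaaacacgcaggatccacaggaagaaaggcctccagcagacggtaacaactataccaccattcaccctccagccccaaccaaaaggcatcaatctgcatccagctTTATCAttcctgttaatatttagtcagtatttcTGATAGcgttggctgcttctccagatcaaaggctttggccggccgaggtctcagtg
Fabp2: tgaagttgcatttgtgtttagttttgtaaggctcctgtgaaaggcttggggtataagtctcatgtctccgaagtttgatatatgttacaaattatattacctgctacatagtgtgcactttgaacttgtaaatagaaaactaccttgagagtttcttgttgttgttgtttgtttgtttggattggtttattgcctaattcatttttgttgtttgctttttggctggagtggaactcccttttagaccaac

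These windows lie at chr3:138277335-138277584 (plus strand), chr8:104961468-104961717 (plus), chr13:4233490-4233739 (plus), chr13:56548539-56548788 (minus) and chr3:122894822-122895071 (plus). The matches begin 150 and 72 bases before the start in Adh1, 131 and 38 in Ces2g, 249, 235 and 98 in Akr1c19, and 89 and 56 in Lect2.

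Transport and fatty acid binding gave the 2 lowest p-values. Slc17a4 encodes a membrane transporter of organic anions (chromosome 13, 23895890 to 23915009, minus strand). In control vehicle the normalized count of Slc17a4 was 605, 566, 765 and 569, and in Gata4LKO vehicle 311, 331, 197 and 230.4. With GW3965 it was 799, 517, 570.1 and 679 in control, and in Gata4LKO 219.8, 222, 196, 243 and 242. All 9 libraries labelled Gata4LKO lay below all 8 controls, and the 5 with GW3965 were close together. The mean was 634 ± 103 in control (SD, n = 8) and 244 ± 47.3 in Gata4LKO (n = 9), an averaged difference of -1.37 ± 0.12 or a fold of 0.387 (95% interval 0.326 to 0.460, limma adjusted p = 1.31e-05).

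Fabp2 encodes the intestinal fatty acid-binding protein, a cytosolic lipid carrier best known from the enterocyte (chromosome 3, 122895072 to 122899506, plus strand). In control vehicle it was at 946, 646, 723 and 415, and in Gata4LKO vehicle at 353, 217, 172 and 143. Control GW3965 libraries had 678, 1912, 1065 and 753 normalized counts of Fabp2, and those of Gata4LKO GW3965 had 294, 309, 272, 254 and 239. The genotypes did not overlap, and the control libraries, replicate 10 of GW3965 above all, were the more spread in normalized counts. On a fold scale the spread of the vehicle groups was similar. The averaged difference was -1.77 ± 0.21, a fold of 0.294 (0.216 to 0.400, limma adjusted p = 9.66e-04). No GATA word stood in its window of 250 bases printed above.

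**Figure D2:**
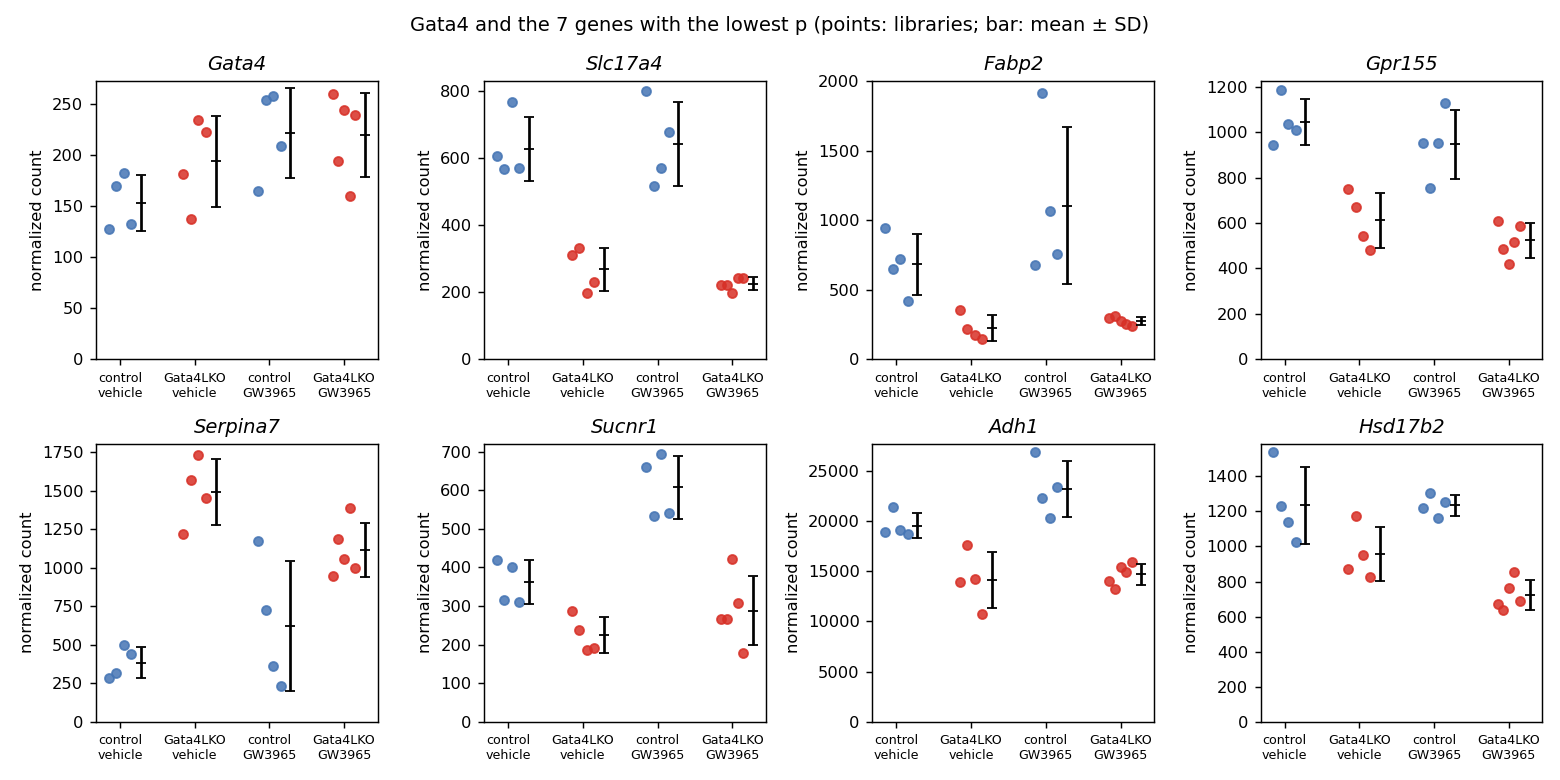
Normalized counts (y axis, from 0) of Gata4 and of the 7 genes with the lowest p in each library, in the 4 groups on the x axis, with the mean ± SD beside the points. Slc17a4, Fabp2, Gpr155 and Adh1 have no library labelled Gata4LKO above a control library, Serpina7 is higher in Gata4LKO with 1 control GW3965 library inside its range, and Gata4 overlaps throughout.

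Genes that load, move or take up lipid followed. Mttp, the triglyceride transfer protein that lipidates apolipoprotein B (chromosome 3, 138089854 to 138144968, minus strand), was at 7865, 6901, 8236 and 7585 in control vehicle and 5441, 5430, 5305 and 5955 in Gata4LKO vehicle. With GW3965 it was at 7624, 8873, 7930 and 9189 in control and 6021, 6386, 7237, 6742 and 5961 in libraries labelled Gata4LKO. Within each treatment every control library was higher, and across treatments only replicate 16 of Gata4LKO GW3965 reached the control range. Mttp fell by 0.42 ± 0.07 on the log2 scale (fold 0.747, limma adjusted p = 0.0163), and was not called without replicate 3 of control vehicle (0.0523). Acsl4, an acyl-CoA synthetase that prefers arachidonic acid, fell by 0.65 ± 0.11 (limma adjusted p = 0.0222), from 2303 ± 567 to 1498 ± 364, and kept the call in 13 of 17 such fits. Vldlr, the very low density lipoprotein receptor, rose by 0.83 ± 0.16 (limma adjusted p = 0.0326), from 219 ± 82.0 to 383 ± 75.0, and kept it in 7. Replicate 9 of control GW3965, at 403, was the one control library of Vldlr inside the range of libraries labelled Gata4LKO with GW3965.

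Of 27 lipoprotein genes, limma and edgeR called Mttp (0.224% of all genes were called by limma). DESeq2 called Mttp, Apoa1 and Apof, against 129 of all 13377 genes it tested. Negative differences were found in 22 of the 27, with a median of -0.13, against 52.8% and -0.01 over all genes tested. Apoa1, the main protein of high density lipoprotein, had a mean of 120731 ± 15177 in control and 82910 ± 13485 in Gata4LKO, a difference of -0.55 ± 0.13 that did not pass (limma adjusted p = 0.0896). Apof, an apolipoprotein that inhibits cholesteryl ester transfer, was at -0.33 ± 0.08 (limma adjusted p = 0.152). Of 13 tested genes of intestinal lipid and bile acid absorption, 10 were lower (median -0.31), against 52.8% of all genes, and Fabp2 and Mttp were called by limma, edgeR and DESeq2, against 0.224% of all genes by limma. This list was chosen with the calls of these genes known.

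Genes of cholesterol synthesis had negative differences throughout the list read here, and Ebp passed over all genes. Ebp is a sterol isomerase late in the pathway (chromosome X, 8185329 to 8193512, minus strand), and its levels had little spread between libraries. Its 8 control libraries ran from 2542 to 3010 with a median of 2786, and its 9 libraries labelled Gata4LKO from 2016 to 2439 with a median of 2235. No library overlapped, in a fall of 0.32 ± 0.06 (limma adjusted p = 0.0482). It kept its call in 2 of 17 fits that left out 1 library, with the highest limma adjusted p, 0.131, without replicate 3 of control vehicle.

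The averaged difference was negative in all 24 genes of the list of cholesterol synthesis and uptake, and all 24 were negative with vehicle and with GW3965 alike. The median was -0.36 (-0.32 with vehicle and -0.46 with GW3965), against -0.01 over all genes. Unadjusted p was below 0.05 in 14 of 24 (58.3%, against 7.19% of all genes). Limma called Ebp, edgeR 0, DESeq2 7 and limma with array quality weights 11. Over all genes these fits called 30, 26, 129 and 191 in that order, of 13379 tested (13377 with DESeq2). Insig1, the sterol-regulated retention protein, had a difference of -0.57 ± 0.12 and Pmvk, the phosphomevalonate kinase, -0.58 ± 0.12, and neither passed (limma adjusted p = 0.0689 for both). The steepest was Mvd, the decarboxylase of mevalonate diphosphate, at -1.05 ± 0.26 (limma adjusted p = 0.13). All 24 were again negative, with a median of -0.55, without the 5 libraries of high mitochondrial share and the 2 with the fewest genes. That fit was added after seeing the data, and in it 7 of the 24 were called, against 96 of all 13379 genes. Without replicate 3 of control vehicle 23 of 24 were negative, with a median of -0.31 and 0 called, against 9 of all genes. With the presence of Gm5345 as a covariate 23 were negative too. With vehicle the summed counts of the list overlapped, from 36760 to 63688.5 in control and 36647 to 42214 in Gata4LKO. With GW3965 they ran from 40989 to 52192 and from 31126 to 40466, without overlap.

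Synthesis of fatty acids and triglycerides had a median of -0.38, with 16 of 19 genes negative, 9 at an unadjusted p below 0.05 and 0 called by limma. EdgeR called 0 too, and DESeq2 called 5 of them, against 129 of all 13377 genes it tested. Of all genes tested by limma, 52.8% were negative and 47.2% positive, and 7.19% had an unadjusted p below 0.05. Fads1, the desaturase of polyunsaturated fatty acids, was at 8161 ± 1073 in control and 6370 ± 985 in Gata4LKO (-0.38 ± 0.08). Elovl5, which elongates polyunsaturated fatty acids, was at -0.50 ± 0.12 (limma adjusted p = 0.102) and Acly, which makes cytosolic acetyl-CoA, at -0.67 ± 0.17 (0.128). Of 18 LXR target genes, 11 were negative, with a median of -0.07 (0.09 with vehicle and -0.19 with GW3965), 5 at an unadjusted p below 0.05 and 0 called by limma, edgeR or DESeq2. Fatty acid oxidation and PPARA targets had 24 of 30 positive on the average, with a median of 0.06. With vehicle 24 were positive (median 0.17) and with GW3965 12 (median -0.04). Limma and edgeR called 0 of these 30 (4 at an unadjusted p below 0.05), and DESeq2 called Vnn1, a pantetheinase, at 0.98 ± 0.22 by limma.

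**Figure D3:**
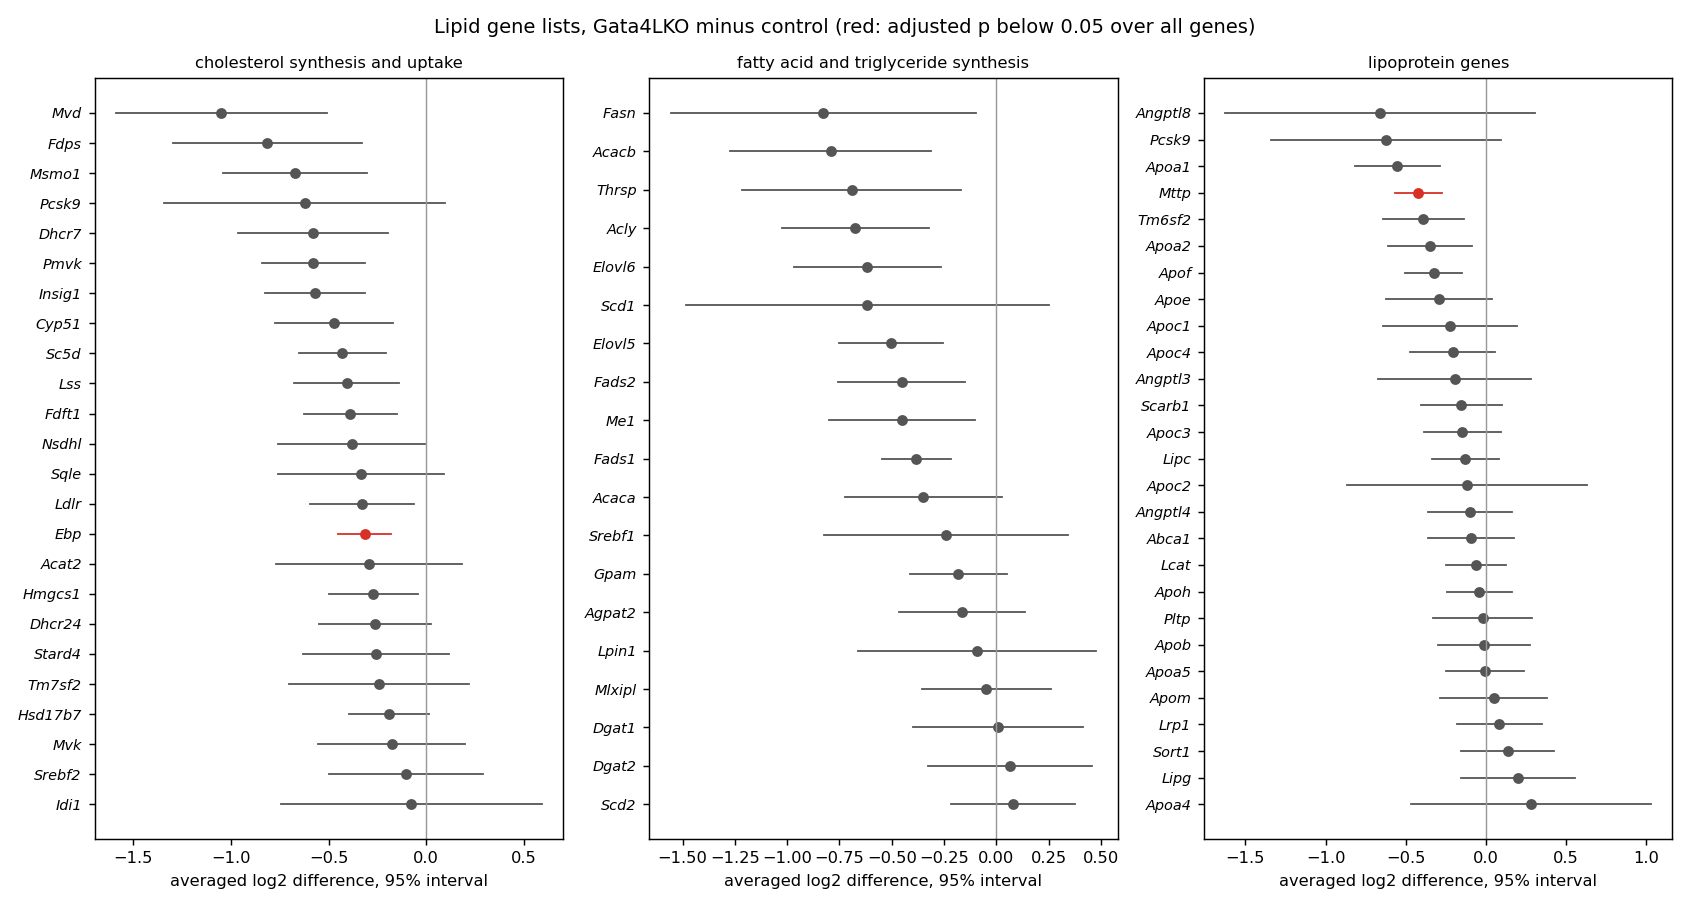
Averaged genotype difference (x axis, log2, with its 95% interval) of each tested gene in the lists of cholesterol synthesis and uptake, fatty acid and triglyceride synthesis, and lipoprotein genes. All 24 points of the first panel are left of 0, and Ebp and Mttp, in red, passed over all genes.

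Single enzymes of alcohol, steroid and bile acid handling were called. Adh1, the main hepatic alcohol dehydrogenase, which also oxidises retinol (chromosome 3, 138260991 to 138290698, plus strand), was at 18971, 21404, 19120 and 18773 in control vehicle and 13920, 17607, 14223 and 10789 in Gata4LKO vehicle. Control GW3965 libraries had 26921, 22358, 20284 and 23389 normalized counts of Adh1, and Gata4LKO GW3965 libraries 14051, 13257, 15386, 14934 and 15893. No library overlapped across genotypes. Adh1 fell by 0.57 ± 0.09, a fold of 0.673 (0.587 to 0.771, limma adjusted p = 0.0163). Its window printed above held 2 GATA words.

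Hsd17b2, which oxidises oestradiol and testosterone to their less active ketones (chromosome 8, 117701904 to 117759027, plus strand), had a lowest value of 1026, a median of 1224 and a highest of 1541 in control. The libraries labelled Gata4LKO had 639.7, 825 and 1176. The ranges met through replicate 6 of Gata4LKO vehicle, at 1176, and Hsd17b2 fell by 0.57 ± 0.09 (limma adjusted p = 0.0163). Akr1c19, an aldo-keto reductase, fell by 0.50 ± 0.09 (limma adjusted p = 0.0300), from 2054 ± 252 to 1436 ± 232. Aldh1a7, an aldehyde dehydrogenase, fell by 0.59 ± 0.11 (limma adjusted p = 0.0359), from 3729 ± 543 to 2483 ± 440.2. Both belong to families of similar copies, between which reads may have been split, and they kept the call in 7 and 4 of 17 fits without 1 library. Of 26 genes of steroid and sulfate conjugation, 16 were lower (median -0.10), against 52.8% of all genes, and limma called Hsd17b2 (0.224% of all). Unadjusted p was below 0.05 in 7 of the 26, all lower (7.19% of all genes had such a p). Of 36 drug-metabolising cytochrome P450 genes, 26 were lower (median -0.16) and 11 had an unadjusted p below 0.05. Limma and edgeR called 0 of these 36. Cyp2a12, at -0.52 ± 0.12 (limma adjusted p = 0.0842), was called by DESeq2 together with Cyp2c70, against 129 of all 13377 genes.

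Baat, the enzyme that joins bile acids to taurine (chromosome 4, 49489422 to 49506557, minus strand), was the bile acid gene that passed. In control vehicle the normalized count of Baat was 4325, 5120, 4856 and 4580, and in Gata4LKO vehicle 3850, 4096, 3361 and 3245. With GW3965 the values were 3875, 3160, 4253 and 4401 in control and 2782, 2424, 2746, 2625 and 2109 in Gata4LKO. It was separate within each treatment and overlapped across them, since GW3965 lowered it too, by 0.40 averaged over genotypes. Baat fell with genotype by 0.50 ± 0.08 (limma adjusted p = 0.0190) and kept the call in 13 of 17 fits without 1 library. Of 20 bile acid genes tested, 13 were lower (52.8% of all genes were), with a median of -0.06, and limma called Baat (0.224% of all genes). Unadjusted p was below 0.05 in 5 of the 20, 3 lower and 2 higher (7.19% of all genes had such a p). Cyp2c70, which makes muricholic acids in mice, had a difference of -0.79 ± 0.17 that did not pass (limma adjusted p = 0.0689).

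Of 14 carboxylesterases tested, limma called 3, all lower (0.224% of all genes were called), and 7 had an unadjusted p below 0.05 (7.19% of all genes). DESeq2 called the same 3, against 129 of all 13377 genes. EdgeR called Ces1g and Ces2g but not Ces2a, against 26 of all 13379 genes. Ces2g fell by 0.86 ± 0.15 (limma adjusted p = 0.0262), from 715 ± 135 in control to 396 ± 109. Its range in control, 429 to 866, reached into that of libraries labelled Gata4LKO, 258 to 562. Ces1g, a lipid hydrolase, fell by 1.19 ± 0.21 (limma adjusted p = 0.0262), from 1623 ± 496 to 719 ± 282, with replicate 16 of Gata4LKO GW3965 at 1388 inside the control range. Each kept the call in 7 of 17 fits without 1 library.

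Ces2a was the one called gene whose difference was not the same sign in both treatments. In control vehicle the normalized count of Ces2a was 2362, 2628, 2586 and 2683, and in Gata4LKO vehicle 2779, 2801, 2429 and 2566. With GW3965 the values were 4266, 4199, 4985 and 3665 in control and 2151, 2004, 2932, 2316 and 1969 in Gata4LKO. The vehicle groups overlapped, and the GW3965 groups did not. The average of -0.44 ± 0.09 (limma adjusted p = 0.0374) thus joined 0.04 ± 0.12 with vehicle and -0.92 ± 0.12 with GW3965, and the difference between these, -0.96, did not pass (limma adjusted p = 0.0817). Ces2a kept the averaged call in 4 of 17 fits without 1 library. The 14 carboxylesterases had 11 negative values and a median of -0.14, and reads may be shared among these similar copies.

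Secreted proteins moved in both directions. Serpina7, thyroxine-binding globulin, a carrier of thyroid hormone in plasma (chromosome X, 139079257 to 139085236, minus strand), was at 283, 314, 501 and 438 in control vehicle and 1217, 1573, 1730 and 1454 in Gata4LKO vehicle. With GW3965 it was at 1172, 723, 365 and 232 in control, for replicates 9, 10, 12 and 13, and at 945, 1186, 1058, 1385 and 998 in Gata4LKO. The vehicle groups were far apart, and replicate 9 of control GW3965 lay within the range of libraries labelled Gata4LKO. Serpina7 rose by 1.54 ± 0.24, a fold of 2.90 (2.06 to 4.09, limma adjusted p = 0.0142). The 2 highest controls, replicates 9 and 10 of GW3965, are the 2 controls in which Gm5345 was below 10. With the presence of Gm5345 as a covariate, added after seeing the data, the Serpina7 difference was 1.12 (limma adjusted p = 0.0103). That covariate is estimated within control GW3965 alone.

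Mbl2, mannose-binding lectin of the complement system, fell by 0.57 ± 0.10 (limma adjusted p = 0.0262), from 4421 ± 838 to 2939 ± 486, with no overlap within either treatment. Lect2, a hepatokine of pericentral hepatocytes, fell by 0.51 ± 0.10 (limma adjusted p = 0.0453), from 1346 ± 316 to 922 ± 178. Lect2 was at 1728, 1634, 1648 and 1436 in control vehicle, above all 4 libraries of Gata4LKO vehicle (803 to 1298), and the GW3965 groups overlapped (845 to 1235 against 731 to 993). Mbl2 kept the call in 11 of 17 fits without 1 library and Lect2 in 3. Pericentral genes other than Lect2 were not called, with 8 of 18 lower and a median of 0.04. Of these 18, 5 had an unadjusted p below 0.05 (27.8%, against 7.19% of all genes), 4 lower and 1 higher. Of 17 periportal genes 10 were lower (median -0.04). Limma called 0 periportal genes, with 2 at an unadjusted p below 0.05. DESeq2, which called 129 of all 13377 genes, called Aldh1b1, a mitochondrial aldehyde dehydrogenase, at -0.85 ± 0.25 by limma.

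Receptors and signalling proteins included the third lowest p. Gpr155, a lysosomal membrane protein that senses cholesterol (chromosome 2, 73341506 to 73386572, minus strand), was at 944, 1187, 1038 and 1009 in control vehicle and 749, 668, 544 and 483 in Gata4LKO vehicle. Control GW3965 libraries had 953, 754, 951 and 1128 normalized counts of Gpr155, and Gata4LKO GW3965 libraries 607, 486, 419.6, 516 and 588. The genotypes did not overlap, though the lowest control (754) and the highest library labelled Gata4LKO (749) nearly met. Gpr155 fell by 0.82 ± 0.11, a fold of 0.566 (0.484 to 0.662, limma adjusted p = 0.00224).

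Sucnr1, the G protein-coupled receptor of succinate (chromosome 3, 60081869 to 60087566, plus strand), was at 421, 316, 402 and 312 in control vehicle and 286, 237, 186 and 191 in Gata4LKO vehicle. With GW3965 it was at 660.1, 533, 695 and 542 in control and 265, 267, 423, 308 and 179 in Gata4LKO. It was separate within each treatment and overlapped across them, through replicate 16 of Gata4LKO GW3965. Sucnr1 fell by 0.91 ± 0.14 (fold 0.534, limma adjusted p = 0.0163). With the presence of Gm5345 as a covariate, estimated within control GW3965 alone, its adjusted p was 0.0651 by limma.

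Dsg1c, a desmosomal cadherin, fell by 1.45 ± 0.24 (limma adjusted p = 0.0163), from 482 ± 110.1 to 189 ± 89.0, and has close copies beside it in the genome. Rnd2, a small GTPase, fell by 1.16 ± 0.23 (limma adjusted p = 0.0374), from 83.8 ± 19.0 to 39.1 ± 20.6. Arhgap27, a GTPase-activating protein, rose by 1.08 ± 0.21 (limma adjusted p = 0.0359). Its 8 control libraries ran from 9.30 to 22.3 and its 9 libraries labelled Gata4LKO from 23.1 to 45.8, with no overlap. Cacna1d, the pore subunit of an L-type calcium channel, rose by 0.95 ± 0.18 (limma adjusted p = 0.0359), from a range of 18.6 to 44.6 to one of 46.8 to 94.5, again with no overlap. Both rising genes had low levels in these livers. Rnd2 kept the call in 2 of 17 fits without 1 library, Arhgap27 in 4 and Cacna1d in 3.

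The other called genes have varied roles. Tmem86b, a lysoplasmalogenase, fell by 0.80 ± 0.15 (limma adjusted p = 0.0268), from a median of 528 to one of 314. Selenbp2, a selenium-binding protein with male-biased expression, fell by 1.00 ± 0.18 (limma adjusted p = 0.0268), from 299 ± 157 to 137 ± 35.9, with no overlap within either treatment. Acsm2, a mitochondrial medium-chain acyl-CoA synthetase, rose by 1.17 ± 0.21 (limma adjusted p = 0.0262), from 27.6 ± 8.87 to 63.2 ± 20.2. The predicted gene Gm6614 rose by 1.44 ± 0.27 (limma adjusted p = 0.0326), from 10.9 ± 4.28 to 30.7 ± 10.2. Lacc1, a purine-metabolising enzyme of laccase type, fell by 0.54 ± 0.11, from 180.2 ± 50.4 to 125 ± 29.1. H2-Q1, a class I histocompatibility gene of a family of similar copies, had a low level, 19.9 ± 10.8 in control and 3.08 ± 3.41 in Gata4LKO (-2.46 ± 0.48, limma adjusted p = 0.0374), and its fitted difference depends on the pseudocount. These 6 genes kept the call in 1 (Lacc1) to 10 (Acsm2) of 17 fits without 1 library. Next below the threshold among higher genes came Vsig4 (0.53 ± 0.11) and the glucuronosyltransferase Ugt2a3 (0.38 ± 0.08), both at a limma adjusted p of 0.0689.

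Libraries of the 9 labelled Gata4LKO and the 8 controls did not overlap in 7 of the 30 genes, against 0.112% of all genes. These were Slc17a4, Fabp2, Gpr155, Adh1 and Ebp, lower, and Arhgap27 and Cacna1d, higher. Within each treatment they did not overlap in 18 of the 30, against 0.329% of all genes. Since these genes were chosen on the same values, the counts are a description.

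The treatments share no library, so what one showed could be read in the other. With vehicle, 44 genes had an unadjusted p below 0.001, and 25 of them (56.8%) had the same sign with GW3965, against 51.8% of all genes. Of those lower with vehicle, 15 of 24 were lower with GW3965 too, and of those higher 10 of 20 were higher. With GW3965, 69 genes had such a p, and 56 (81.2%) had the same sign with vehicle. Of those lower with GW3965, 47 of 53 were lower with vehicle too, and of those higher 9 of 16 were higher. Of the 30 averaged genes 29 had 1 sign in both treatments, which the averaging favours.

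**Figure D4:**
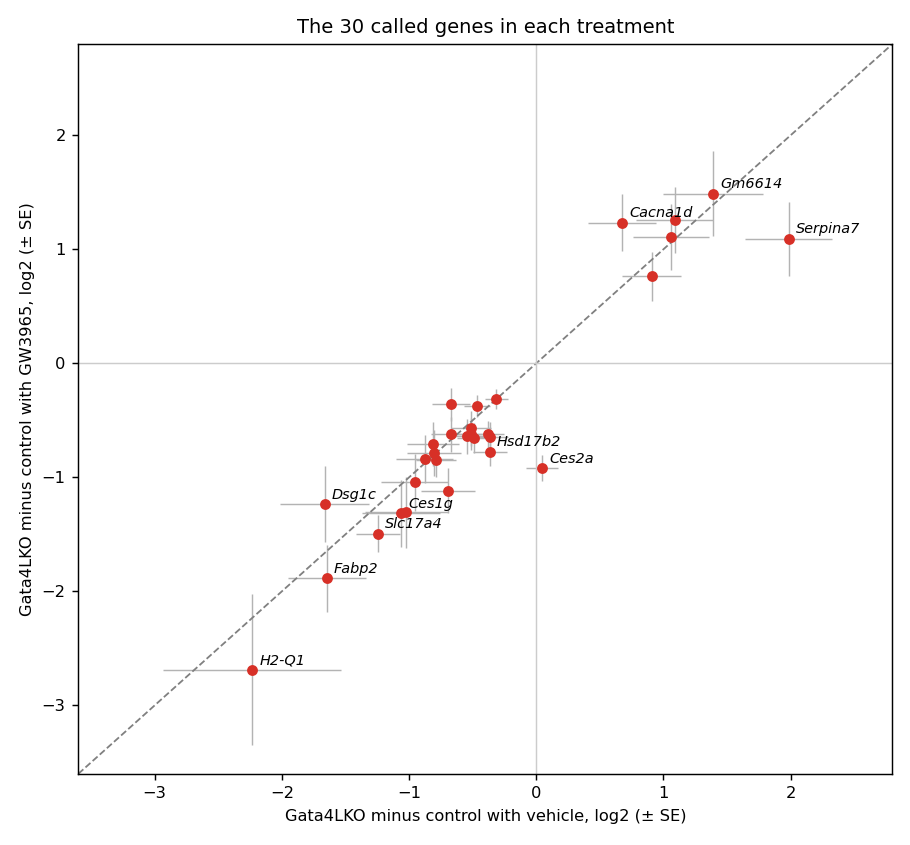
Genotype difference with vehicle (x axis) and with GW3965 (y axis), log2 ± SE from limma, for the 30 genes called on the average, with the line of equal differences dashed. Ces2a lies at 0 with vehicle, and the other 29 lie in the lower left or upper right quadrant.

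On their own, the treatments gave few calls for these 30 genes. By limma 1 was called with vehicle (0.0149% of all genes) and 6 with GW3965 (0.0598%). The authors' deposited table for vehicle held 12 of the 30 at an adjusted p below 0.05 (0.434% of its genes), and the authors' deposited table for GW3965 held 23 (0.51%). Of the 30, 7 passed in both of the authors' deposited tables and 28 in at least 1. None of the 30 passed the limma test of a difference between treatments, where 0.0149% of all genes did, and 2 had an unadjusted p below 0.05 in it, against 4.65% of all genes. GW3965 itself moved 4 of the 30 averaged over genotypes (1.78% of all genes), raising Lacc1 (0.62) and Acsl4 (0.51) and lowering Lect2 (-0.43) and Baat (-0.40).

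Genes called in 1 treatment did not all carry into the average. Sult1e1, the oestrogen sulfotransferase, had a difference of -2.88 ± 0.44 with vehicle and 1.07 ± 0.42 with GW3965, and its average of -0.91 ± 0.30 did not pass (limma adjusted p = 0.355). Lcn2, a siderophore-binding lipocalin, was at -0.35 ± 0.33 and 1.91 ± 0.31, with an average of 0.78 ± 0.23 (limma adjusted p = 0.254). Adamtsl2, a secreted glycoprotein, was at -0.24 ± 0.24 and 1.33 ± 0.23, with an average of 0.54 ± 0.17 (limma adjusted p = 0.300). In each of these 3 genes the differences in the treatments had opposite signs.

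Marker lists of Kupffer cells, sinusoidal endothelium and stellate cells had positive medians. So did those of continuous endothelium (0.19), of blood, adipose, pancreas and gut (0.20) and of lymphocytes and recruited myeloid cells (0.05). That of cholangiocytes was negative (-0.18). Averaged differences were positive for all 14 tested Kupffer cell and macrophage markers (median 0.34), and 0 were called by limma or edgeR, with 6 at an unadjusted p below 0.05 and 1, Vsig4, called by DESeq2. All 14 were positive with vehicle and 7 with GW3965. All 17 of the sinusoidal endothelium were positive (median 0.17), with 2 at such a p, and so were 13 of 16 of stellate cells and fibroblasts (median 0.21, from 0.07 with vehicle and 0.40 with GW3965), with 5. Limma, edgeR and DESeq2 called 0 in the sinusoidal and stellate lists. Over all genes tested 47.2% were positive, 7.19% had an unadjusted p below 0.05, and DESeq2 called 129 of 13377. Of 9 hepatocyte markers 8 were negative (median -0.20), with 1, Apoa1, at such a p, called by DESeq2 but not by limma or edgeR. Vsig4, a complement receptor of Kupffer cells, was at 284 ± 47.8 in control and 417 ± 91.8 in Gata4LKO. In bulk tissue, fewer cells of a type and less RNA per cell cannot be told apart.

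The summed Kupffer markers ran from 5528 to 6579 in control vehicle and 7436 to 8933 in Gata4LKO vehicle, without overlap. With GW3965 they ran from 6767 to 10912 in control and 6490 to 9289 in Gata4LKO, overlapping, with a median difference of 0.04 against 0.56 with vehicle. Without the 7 libraries that stood apart, 12 of 14 were positive, with a median of 0.29. Summed sinusoidal markers overlapped in both treatments, from 7362 to 8012 and 7252 to 8730 with vehicle and from 7277 to 12445 and 7659 to 12190 with GW3965. Summed stellate and fibroblast markers ran from 4720 to 5494 in control vehicle and 4669 to 6206 in Gata4LKO vehicle, overlapping. With GW3965 they ran from 4830 to 6095 in control and from 6142 to 8603 in Gata4LKO, without overlap. The part of these cells in the genotype differences was not tested.

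Of 15 lymphocyte and recruited myeloid markers tested, 8 were positive (median 0.05), of 6 of continuous endothelium 4 (0.19), of 8 of blood, adipose, pancreas and gut 6 (0.20), and of 7 of cholangiocytes 2 (-0.18, from -0.34 with vehicle and 0.10 with GW3965). Limma and edgeR called 0 genes in these 4 lists, where unadjusted p was below 0.05 in 1, 0, 2 and 1 genes in that order. DESeq2 called Alas2, of the red cell line, against 129 of all 13377 genes. Of all genes tested, 47.2% were positive and 7.19% had an unadjusted p below 0.05. The adipose marker Adipoq reached 1.11 at most in any library, the pancreas marker Pnliprp1 1.26 and the gut marker Muc2 5.31.

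Sex-biased and other lists gave few calls. Over all genes tested 52.8% were lower, 7.19% had an unadjusted p below 0.05 and limma called 0.224%. Of 21 male-biased genes 16 were lower with a median of -0.32 and Selenbp2 called, and that median was -0.01 with vehicle and -0.78 with GW3965. Such a p was found in 4 of the 21, all lower. Of 12 female-biased genes tested 10 were higher (median 0.20), with 3 at an unadjusted p below 0.05 and 0 called. Organic anion and drug transporters had 17 of 30 lower (median -0.02), with Slc17a4 called and 6 at such a p, 3 lower and 3 higher. GATA factors and cofactors had 8 of 10 higher (median 0.16) and hepatocyte transcription factors 12 of 24 (median -0.01), with 1 and 0 at such a p and 0 called. Extracellular matrix and BMP or TGF-beta targets had 24 of 29 higher (median 0.17, from 0.03 with vehicle and 0.33 with GW3965) and the unfolded protein and integrated stress response 21 of 27 lower (median -0.13), with 5 and 1 at such a p and 0 called. These counts of 0 hold for limma, edgeR and DESeq2.

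Averaged medians were within 0.10 of 0 in glucose and glycogen metabolism (-0.09, 13 of 21 lower), iron and haem (-0.02, 18 of 31 lower), acute phase (-0.01, 14 of 25 lower), interferon response (0.03, 18 of 31 higher), p53 response (0.04, 14 of 21 higher), the clock (-0.03, 11 of 20 lower) and the cell cycle (-0.05, 11 of 18 lower). Limma, edgeR and DESeq2 called 0 genes in each of these 7 lists. Unadjusted p was below 0.05 in 3, 2, 4, 0, 2, 2 and 1 of their genes in that order, against 7.19% of all genes. Of all genes, 52.8% were lower and 47.2% higher. In several of these lists, among others, the medians of the treatments had opposite signs. Cell cycle genes had a median of 0.09 with vehicle (10 of 18 higher) and -0.04 with GW3965 (10 of 18 lower). Acute phase genes had a median of -0.25 with vehicle (22 of 25 lower) and 0.20 with GW3965 (18 of 25 higher). Interferon response genes had 0.25 with vehicle (25 of 31 higher) and -0.08 with GW3965 (19 of 31 lower), and iron and haem genes -0.18 (22 of 31 lower) and 0.02 (16 of 31 higher). Glucose and glycogen genes, by contrast, had a negative median in both, -0.29 with vehicle (16 of 21 lower) and -0.05 with GW3965 (12 of 21 lower). The difference between treatments was not tested for lists. The 9 mitochondrially encoded transcripts tested were all lower on the average (median -0.25), with a median of -0.52 and 9 of 9 lower with vehicle, and 5 of 9 lower with GW3965 (median -0.0018), with 0 called by the same tests and 0 at an unadjusted p below 0.05. Over the 35 lists, 614 of 688 genes were tested and 11 of the 30 called genes were members.

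**Figure D5:**
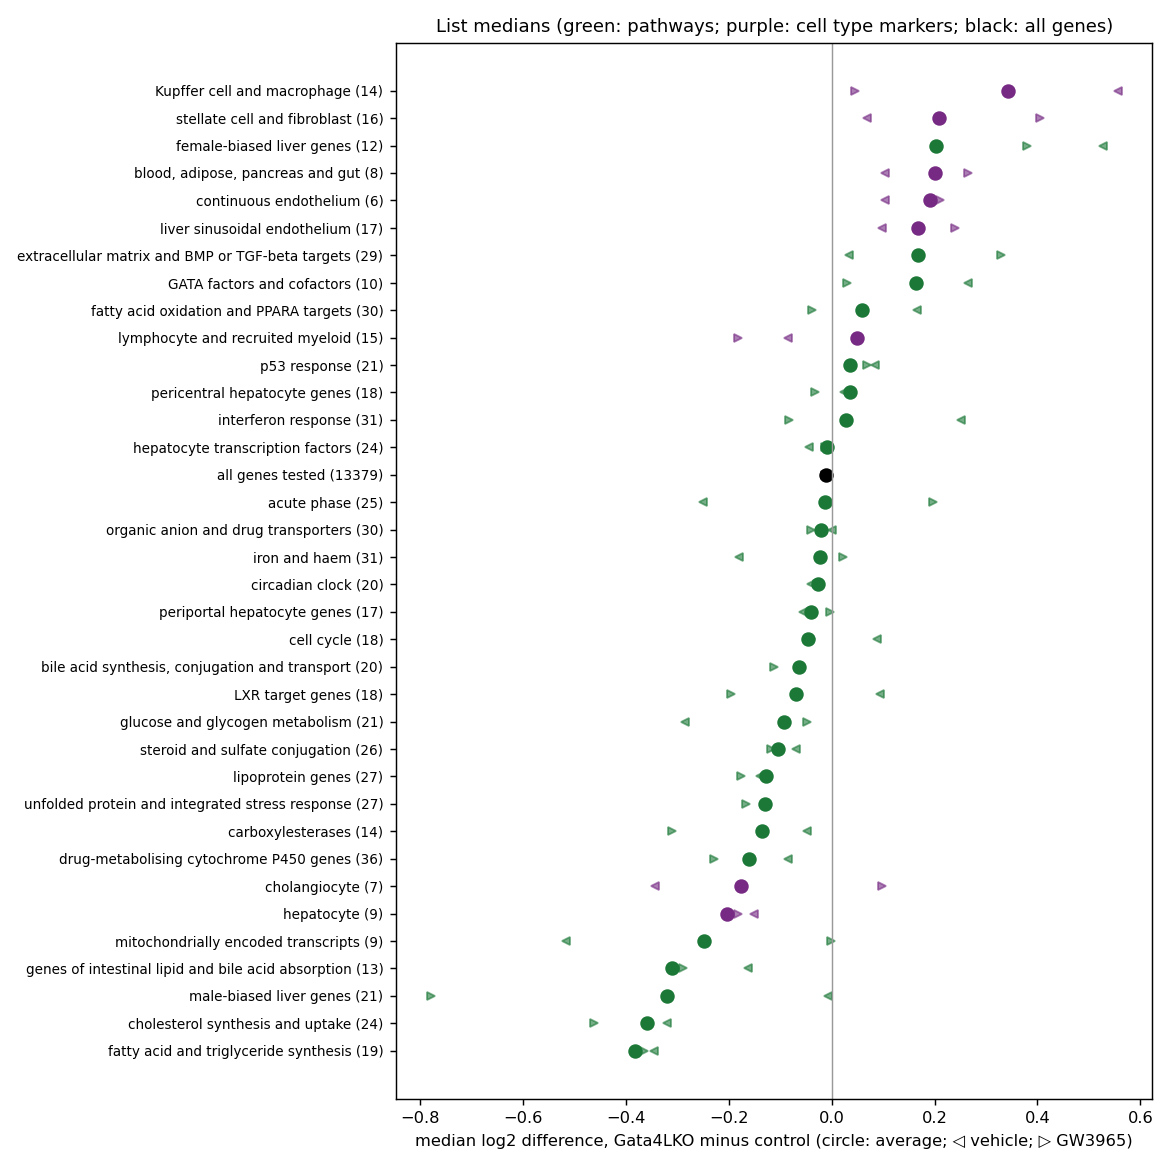
Median genotype difference of each gene list (x axis, log2) averaged (circles), with vehicle and with GW3965 (triangles), with pathways in green, cell type markers in purple and all genes in black. Fatty acid synthesis and cholesterol synthesis lie farthest left, at -0.38 and -0.36 on the average, and Kupffer markers farthest right at 0.34.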

How the data were processed

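Liver mRNA was profiled in 17 libraries made with a KAPA mRNA kit, per the labels' protocols. The submitters' processing notes name STAR 2.6.0c, the mm10 build, FastQC and DESeq2. No source used here gives the read counter, annotation or strand setting. The authors deposited normalized counts, a signal in which read counts are scaled by a single factor in each library, as the values show: 100% lay within 0.05 read of a whole number once divided by the smallest value of the library. Per the file headers, their deposited comparison tables give each gene a log2 fold change with its p-value before and after adjustment.

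Groups followed sample titles. The treatment label contradicts the title in 8 libraries, and the series design text gives an age of 9 weeks where the labels give 11. A gene entered the fit when 4 or more libraries had 10 or more normalized counts of it (13379 of 24676). Limma-trend (limma 3.58.1, R 4.3.3) was fitted to log2(normalized count + 1) with 1 coefficient per group, and the contrast was the mean of both genotype differences, adjusted over all genes by Benjamini-Hochberg. A pseudocount of 1 understates changes of low genes. EdgeR 4.0.16 (quasi-likelihood) and DESeq2 1.42.0 were run on the recovered reads as alternatives. The script was tested on simulated data. In each of the 28 pairs of libraries within a group, reads differed by more than sampling noise (chi-square per gene 16.1 to 384, where counting error alone gives about 1), so none was counted as a duplicate.

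Named were all called genes, the 8 lowest p in a direction with fewer than 8 calls, the called members and the 3 lowest p of each list, genes called in 1 treatment, Gata4, Gata6 and the 5 lowest interaction p, of which the text gives those that bear on the results. One called gene is not reported here and enters no list. The members and the gene lists were chosen with earlier results of these data known, so no list is independent support, and lists are described by counts and medians with no test. Gene positions came from GENCODE M21 (mm10), which held 24656 of 24676 identifiers.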

Additional observations from a re-analysis of the deposited data

Results flagged for a closer look

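Among the 4 or 5 libraries of a group, a value far from the others by Dixon's ratio of gap to range was found in 6 of 140 sets tested, where chance gives about 1 in 20. Adh1 was at 21404 in replicate 2 of control vehicle, above the next, 19120. Mbl2 was at 5035 in replicate 13 of control GW3965, above 3834. In replicate 18 of Gata4LKO GW3965, Dsg1c was at 335, above 186, and H2-Q1 at 6.70, above 1.57. The mitochondrially encoded share was 19.0% in replicate 1 of control vehicle, above 6.61%, and the same library had 17780 genes above 0, below 18320.

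The genotype difference with GW3965 differed from that with vehicle, by the interaction term of limma over all genes, in 2 genes. For Sult1e1 the difference of differences was 3.95 (limma adjusted p = 0.0374), from values of 92.2, 90.2, 155 and 67.9 in control vehicle, 8.68, 9.47, 17.2 and 15.8 in Gata4LKO vehicle, a mean of 15.7 ± 9.70 (SD, n = 4) in control GW3965 and 18.1, 49.0, 26.8, 17.3 and 62.5 in Gata4LKO GW3965. For the pseudogene Gm5345 it was 7.54 (limma adjusted p = 0.0374), with values between 0 and 1.64 in all 4 libraries of Gata4LKO vehicle and in replicates 9 and 10 of control GW3965, and between 23.1 and 101 in the others. The averaged differences of these genes, -0.91 and -1.08, did not pass.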

How the results depend on the processing

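Over 33 alternatives none of the 30 genes changed sign. The count of 30 became 129 with DESeq2 (35 higher), 191 with array quality weights (52 higher) and 142 with the mitochondrial share as a covariate (34 higher). Of the alternatives added after seeing the data, it became 8 with the presence of Gm5345 as a covariate and 96 without the 7 libraries that stood apart, which leaves 2 or 3 libraries in a group. In each case the cause was not tested. Leaving out 1 library gave 9 to 57 calls. It was 15, 9 and 19 without replicates 2, 3 and 4 of control vehicle, 12, 12 and 11 without replicates 5, 7 and 8 of Gata4LKO vehicle, 10 without replicate 12 of control GW3965. It was 12, 12, 57 and 18 without replicates 14, 15, 17 and 18 of Gata4LKO GW3965. The other alternatives, among them other pseudocounts, filters, scalings and an additive model, gave 20 to 37. Without the 2 libraries with the fewest genes, 17 of the 30 were called. The share of lower genes, 80.0%, was 91.9% without the 5 libraries of high mitochondrial share. Gata4 ranged from 0.0890 to 0.262 and was not called. No paired analysis was possible because the replicate numbers are unique across the groups.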

Other observations

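The called genes included neighbours. Between the annotated ends of Adh1 and Mttp lie 116022 bases of chromosome 3, and between those of Ces2g and Ces2a 220083 bases of chromosome 8, both pairs being lower on the average. The median normalized count of the 30 genes was 675, against 200.1 over all genes tested. Aldh1b1, at 1097 ± 436 in control and 580.5 ± 183 in Gata4LKO (SD, n = 8 and 9), differed by -0.85 ± 0.25 without passing in limma (adjusted p = 0.265).

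Among genes that did not pass in limma, Vnn1, which hydrolyses pantetheine, was at 680.3 ± 277 in control and 1239 ± 272 in Gata4LKO (0.98 ± 0.22, limma adjusted p = 0.0884). Alas2, the aminolevulinate synthase of red cell precursors, was at 1556 ± 325 and 1084 ± 381 (-0.54 ± 0.14, limma adjusted p = 0.168). Of the cofactors of GATA factors, Zfpm1 had a difference of -0.48 ± 0.17 (limma adjusted p = 0.393).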
